A study of Rattus norvegicus with 12 samples.

Results

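The thick ascending limb of the loop of Henle (TAL) was represented by 17538 of the 217132 kidney nuclei in the deposited table, namely the nuclei whose low-level cluster the authors called TAL. The TAL reabsorbs salt through the sodium-potassium-chloride cotransporter NKCC2, the product of Slc12a1 and the target of loop diuretics. It is impermeable to water, so that it dilutes the tubular fluid and builds the osmotic gradient of the medulla, and it secretes uromodulin, the product of Umod and the main protein of normal urine. Single-gene expression was not analysed here, so the name TAL is that of the authors and could not be held against these 2 markers. Of the TAL nuclei, 17513 carried the loop of Henle as their high-level type and 25, from 6 rats, carried the proximal tubule.

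Single-nucleus RNA sequencing was performed on kidneys of 12 male ZSF1 rats (ZSF1-LeprfaLeprcp/Crl), 3 per group. Obese ZSF1 rats lack normal leptin receptor signaling in every cell and develop obesity, diabetes and kidney disease, while lean ZSF1 rats serve as controls. From 13 to 14 weeks of age, obese rats received for 12 weeks the vehicle (called untreated obese here), the soluble guanylate cyclase activator sGCact (BAY 1101042, Runcaciguat) at 3 mg/kg 2 times a day, or the soluble guanylate cyclase stimulator sGCstim (BAY 1165747) at 3 mg/kg 1 time a day. Lean rats received neither drug nor vehicle, so genotype and dosing cannot be told apart between lean and untreated obese rats. The sequenced rats came from 6 lean and 10 obese rats per obese group. Rats are named by the identifiers of the table.

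The libraries differed before any comparison of TAL. A rat contributed 10488 to 43484 retained nuclei, with the highest number in the untreated obese rat RK9_4, and 11898496 to 49272672 unique molecular identifiers (UMIs, each standing for 1 captured transcript molecule). The labels give 10000 loaded nuclei, which the retained number exceeded in every rat. TAL nuclei numbered 438 to 3502 per rat. Of the TAL barcodes, 76 (0.433%) recurred in TAL nuclei of another rat. Lean rats held 8796 TAL nuclei, 50.2% of the cluster, followed by 4010 in sGCstim-treated, 2871 in sGCact-treated and 1861 in untreated obese rats.

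First, it was asked whether TAL nuclei made up a different share of the retained nuclei in lean and obese rats. In the paper, nuclei were isolated from a small amount of frozen kidney tissue, and its content of cortex and medulla is not given. The shares are therefore those of the sampled tissue and not of the whole kidney. Whether the sampled region differed between rats was not tested. In lean rats TAL made up 19.9% (RK1_4), 13.0% (RK3_4) and 20.7% (RK5_4) of all nuclei. In untreated obese rats the share was 4.15% (RK7_4), 1.29% (RK9_4) and 6.59% (RK16_4). Each untreated obese rat lay below each lean rat, and RK9_4, with the most nuclei, had the lowest share of all 12 rats. The mean share was 17.9% ± 4.24 in the lean group and 4.01% ± 2.65 in the untreated obese group (SD, n = 3 each). A two-sided exact permutation test gave p = 0.1, below which groups of 3 rats cannot go. In log odds the share was lower by an estimated -1.83 (SE 0.51, 95% interval -2.93 to -0.73, limma adjusted p = 0.0323 over 25 clusters). In this contrast 12.0% of the clusters passed, namely TAL, the descending thin limb (DTL) and PTnov2, a proximal tubule cluster named here after its values were seen, all of them lower in obese rats. The call did not hold with the proximal tubule left out of the denominator (-0.92, adjusted p = 0.251), with a centred log-ratio (-0.94, adjusted p = 0.0863) or when RK1_4, RK5_4, RK7_4, RK9_4, RK43_4, RK45_4 or RK57_4 was left out in turn (-2.19 to -1.35 over all 12 omissions). The direction was the same in each of these fits. The libraries of the same groups also differed outside TAL. In the other nuclei the median was 1687 to 2788 UMIs in lean and 766 to 1414 in untreated obese rats, and the median mitochondrial percentage was 0% to 0.154% and 0.424% to 3.78%. Nuclei under 1000 UMIs made up 0.891% to 17.1% of the other nuclei in lean and 24.2% to 73.5% in untreated obese rats. None of these ranges overlapped (two-sided exact permutation tests, p = 0.1 each), and their part in the TAL share was not tested. Whether the genes that define the TAL cluster differed between groups was not tested.

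**Figure D1:**
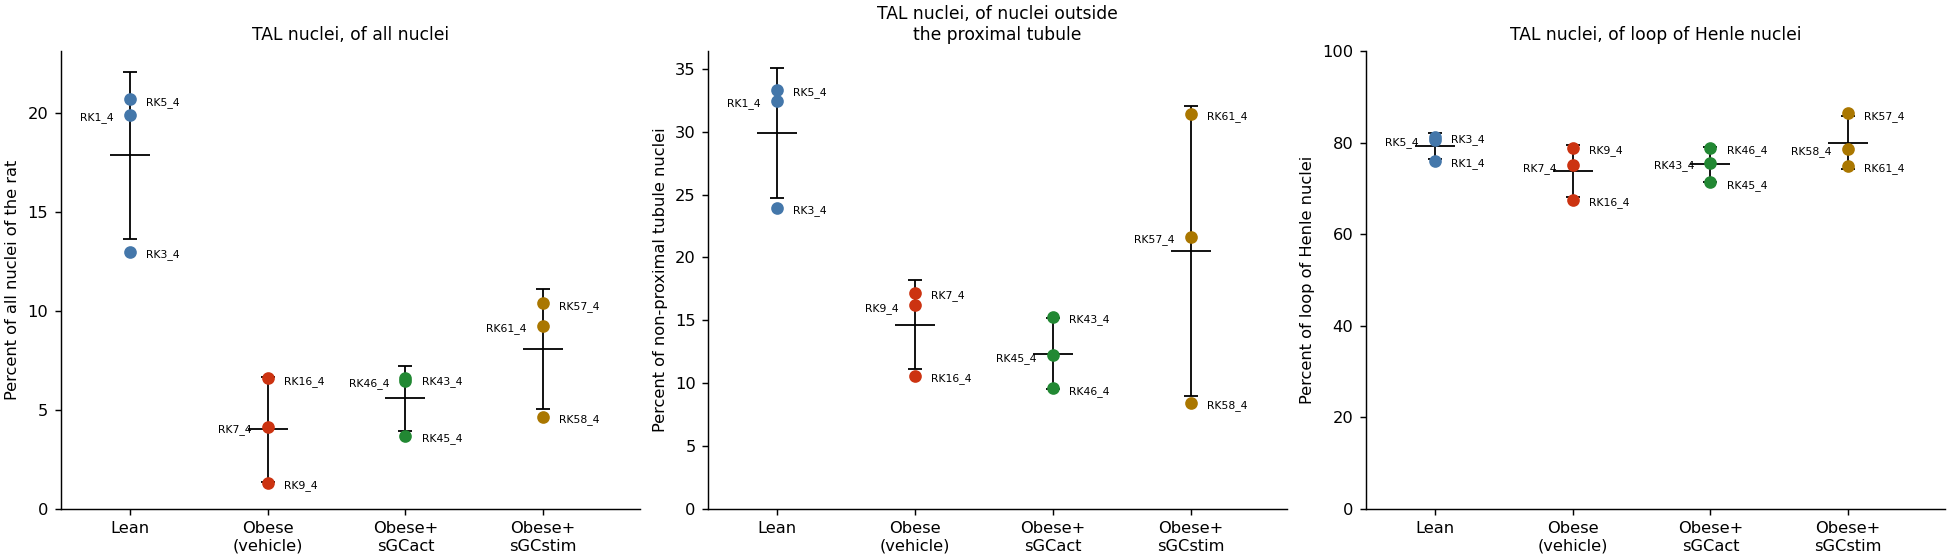
Share of TAL nuclei in each rat (points, with rat names) as a percentage of all nuclei, of nuclei outside the proximal tubule, and of loop of Henle nuclei, with group mean and SD (bars, n = 3). Untreated obese rats lie below lean rats in the first 2 panels, whereas the groups overlap in the share of loop of Henle nuclei.

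The share depends on how many nuclei of the other clusters were recovered. Among nuclei outside the proximal tubule, TAL made up 32.5%, 23.9% and 33.3% in the lean rats RK1_4, RK3_4 and RK5_4. It made up 17.2%, 16.2% and 10.6% in the untreated obese rats RK7_4, RK9_4 and RK16_4. The groups did not overlap, and RK9_4 no longer stood below the other untreated obese rats (29.9% ± 5.20 against 14.6% ± 3.55, SD, n = 3, two-sided exact permutation test, p = 0.1). Counted against the distal convoluted tubule (DCT), the next segment of the nephron, lean rats had 5.48, 2.23 and 4.75 TAL nuclei per DCT nucleus. Untreated obese rats had 1.65, 1.55 and 0.691, again without overlap (two-sided exact permutation test, p = 0.1). In the limma fit of this ratio the change was -1.68 on the log2 scale (SE 0.80, adjusted p = 0.118 over 24 ratios).

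The share was also taken within ranges of UMIs per nucleus. Among nuclei with over 2000 UMIs, TAL made up 24.9%, 13.7% and 17.6% in lean rats and 2.42%, 7.94% and 2.08% in untreated obese rats, with no overlap (two-sided exact permutation test, p = 0.1). Among nuclei with 1000 to 2000 UMIs the shares were 6.35%, 14.5% and 27.3% against 11.6%, 2.48% and 8.52%, and the groups overlapped (p = 0.3 by the same exact permutation test). Below 1000 UMIs the shares were 0%, 3.40% and 4.99% in lean and 1.48%, 0.221% and 6.68% in untreated obese rats. The group means were 2.79% ± 2.55 and 2.79% ± 3.42 (SD, n = 3), but they rest on widely spread values. Lean rats had 119 to 2407 nuclei in this range, with the fewest in RK1_4, and untreated obese rats had 3176 to 31632. These ranges were chosen after the data were seen, and the part of depth in the difference was not tested. Among nuclei with at least 1000 UMIs the log odds of the TAL share differed by -1.26 (limma adjusted p = 0.0699).

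Next, TAL was compared with the thin limbs, the other segments of the loop of Henle. Of the nuclei in the 4 loop of Henle clusters (TAL, DTL, DTL(Shroom3+) and the ascending thin limb, ATL), TAL made up 76.0%, 81.3% and 80.6% in the lean rats and 75.0%, 78.8% and 67.5% in the untreated obese rats RK7_4, RK9_4 and RK16_4. The groups overlapped, and the lowest value belonged to RK16_4. TAL thus accounted for 79.3% ± 2.88 and 73.8% ± 5.77 (SD, n = 3) of the loop, a difference in log odds of -0.30 (SE 0.27, 95% interval -0.87 to 0.27, limma adjusted p = 0.386 over 4 clusters). No loop cluster passed in this contrast (0.0%). The ratio of TAL to DTL nuclei was 14.9 ± 3.13 in lean and 17.2 ± 8.91 in untreated obese rats (SD, n = 3, log2 change 0.09, SE 0.56, adjusted p = 0.91). The interval of that change ran from -1.13 to 1.31.

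TAL was then set against each of the other 24 clusters, because the ratio of a pair of clusters does not depend on the rest of the nuclei. From lean to untreated obese rats the estimate was lower for 22 of 24 ratios, and for 13 of them the untreated obese and lean rats did not overlap. By limma 33.3% of the ratios passed, 7 lower and 1 higher. All ratios share the TAL counts of the same rats, so they are not independent of each other. TAL nuclei per nucleus of PTinj, the injured proximal tubule, ranged from 7.38 to 16.7 in lean and from 0.725 to 1.23 in untreated obese rats (log2 change -3.69, SE 0.53, adjusted p = 0.000368). Per immune cell nucleus the ratio ranged from 15.7 to 20.7 in lean and from 0.998 to 3.46 in untreated obese rats (-3.39, SE 0.66, adjusted p = 0.00231). In both ratios the groups were well apart. Ratios to the proximal tubule clusters PCT(Spp1+) (log2 change -5.06, SE 1.44, adjusted p = 0.0259) and PTnov1 (-2.53, SE 0.86, adjusted p = 0.0491) were lower as well. The PCT(Spp1+) ratio ranged from 50.5 to 104 in lean rats and spread widely in untreated obese rats, from 0.135 to 17.5. For PTnov2 the ratio ranged from 7.70 to 22.0 in lean rats and could not be formed in untreated obese rats, which had no PTnov2 nuclei. The other ratios past the threshold, named after their values were seen, were those to the proximal convoluted tubule (PCT, -2.52, adjusted p = 0.0457), podocytes (-1.98, adjusted p = 0.0491) and fibroblasts and pericytes (-1.57, adjusted p = 0.0491). Ratios do not tell fewer TAL nuclei from more nuclei of the other cluster. The number of ratios that passed was 4 when nuclei had at least 1000 UMIs, 5 when they had no more than 1% of UMIs on mitochondrial genes, and 3 to 10 when 1 rat was left out. It moved by over 1.5 times without RK1_4, RK5_4, RK7_4, RK9_4, RK43_4, RK45_4 or RK57_4.

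**Figure D2:**
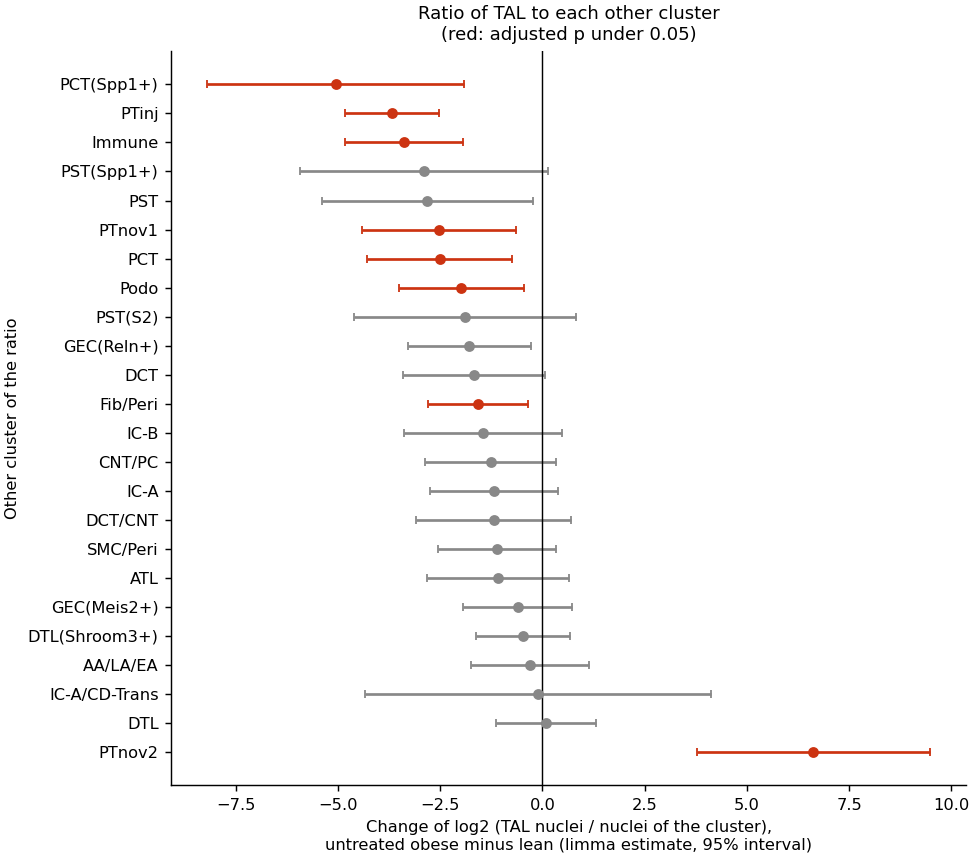
Change of the log2 ratio of TAL nuclei to the nuclei of each other cluster, untreated obese minus lean (limma estimate with 95% interval, 3 rats per group, red where the adjusted p was under 0.05). Of the 24 estimates 22 lie below 0, DTL lies near 0, and PTnov2, absent from untreated obese rats, lies above 0 at a fitted value that depends on the 0.5 nuclei added.

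The treated obese rats were compared with untreated obese rats to ask whether the TAL share moved under sGC modulation. Under sGCact, TAL made up 6.59% (RK43_4), 3.68% (RK45_4) and 6.46% (RK46_4) of all nuclei. Under sGCstim, the share was 10.4% (RK57_4), 4.65% (RK58_4) and 9.26% (RK61_4). Both groups overlapped the untreated obese rats, and all treated rats lay below all lean rats. The means were 5.57% ± 1.65 under sGCact and 8.10% ± 3.04 under sGCstim (SD, n = 3, two-sided exact permutation tests against untreated obese rats, p = 0.6 and p = 0.2). In log odds, sGCact differed from untreated obese by 0.51 (SE 0.51, 95% interval -0.59 to 1.62, limma adjusted p = 0.519). For sGCstim the difference was 0.89 (SE 0.51, 95% interval -0.21 to 1.99, limma adjusted p = 0.677). sGCact and sGCstim differed by -0.38 (SE 0.51, 95% interval -1.48 to 0.72, limma adjusted p = 0.964). No cluster passed in these contrasts (0.0% of 25, and none at an unadjusted p under 0.05), nor did any ratio to TAL (0.0% of 24, with 1 ratio at an unadjusted p under 0.05 between sGCact and untreated obese and none in the other contrasts). The 2 drugs were given at different numbers of doses a day. The estimate for sGCact changed sign with the proximal tubule left out of the denominator (-0.19).

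Outside the proximal tubule, TAL made up 15.3%, 12.2% and 9.57% in the sGCact-treated rats RK43_4, RK45_4 and RK46_4. In the sGCstim-treated rats RK57_4, RK58_4 and RK61_4 it made up 21.6%, 8.41% and 31.4%. The sGCstim group held both the lowest value of all 12 rats and a value within the lean range, in RK61_4. RK61_4 also had 4.14 TAL nuclei per DCT nucleus, against 1.61 in RK57_4 and 0.416 in RK58_4. The sGCact-treated rats RK43_4, RK45_4 and RK46_4 had 1.07, 0.904 and 0.523 TAL nuclei per DCT nucleus. Their mean of 0.832 lay below the 1.30 of untreated obese rats, and the groups overlapped (two-sided exact permutation test, p = 0.3). Within the loop of Henle, TAL made up 75.6%, 71.3% and 78.9% under sGCact and 86.4%, 78.6% and 74.9% under sGCstim. These values overlapped with those of untreated obese rats, and the differences in log odds were 0.07 (95% interval -0.50 to 0.64) and 0.37 (95% interval -0.20 to 0.94), with limma adjusted p of 0.899 and 0.468. Between the drugs the difference was -0.30 (95% interval -0.87 to 0.27, adjusted p = 0.412).

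The number of UMIs per TAL nucleus, a measure of depth, was examined next. The median UMIs per TAL nucleus were 3166, 2126 and 1691 in the lean rats RK1_4, RK3_4 and RK5_4, and 1328.5, 2012 and 1211.5 in the untreated obese rats RK7_4, RK9_4 and RK16_4. RK9_4 lay above the lean rat RK5_4, and the other untreated obese rats lay below the lean range. On the log2 scale the difference was -0.60 (SE 0.28, limma adjusted p = 0.146), and 16.7% of 24 clusters passed. Without RK5_4 the call was made (-0.81, adjusted p = 0.0351). The medians were 1547, 1756.5 and 1619 under sGCact and 1477, 1458.5 and 1830 under sGCstim, within the range of the untreated obese rats. The differences from untreated obese rats were 0.15 for sGCact and 0.09 for sGCstim on the log2 scale (SE 0.28 each, adjusted p = 0.836 and 0.957). The drugs differed by 0.05 (95% interval -0.53 to 0.63, adjusted p = 0.929). In these contrasts 8.33%, 0.0% and 4.17% of the clusters passed.

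The depth of TAL relative to the other nuclei of the same rat differed between rats. In RK9_4 the median was 2012 UMIs in TAL and 899 in all other nuclei, and in RK61_4 it was 1830 and 924. In RK16_4, by contrast, TAL nuclei had 1211.5 UMIs and other nuclei 1414. TAL exceeded the other nuclei in 8 of 12 rats and lay below them in 4, with ratios from 0.857 to 2.24. Relative to the median cluster of the same rat, TAL differed between untreated obese and lean rats by -0.12 on the log2 scale (SE 0.23, 95% interval -0.60 to 0.37, adjusted p = 0.905), while 0.0% of the clusters passed. With all nuclei outside TAL as the reference the estimate was 0.51. The relative values differed by 0.21 between sGCact and untreated obese rats, by 0.01 between sGCstim and untreated obese rats and by 0.20 between the drugs (limma adjusted p = 0.784, 0.993 and 0.682, with 8.33%, 0.0% and 4.17% of the clusters past the threshold).

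**Figure D3:**
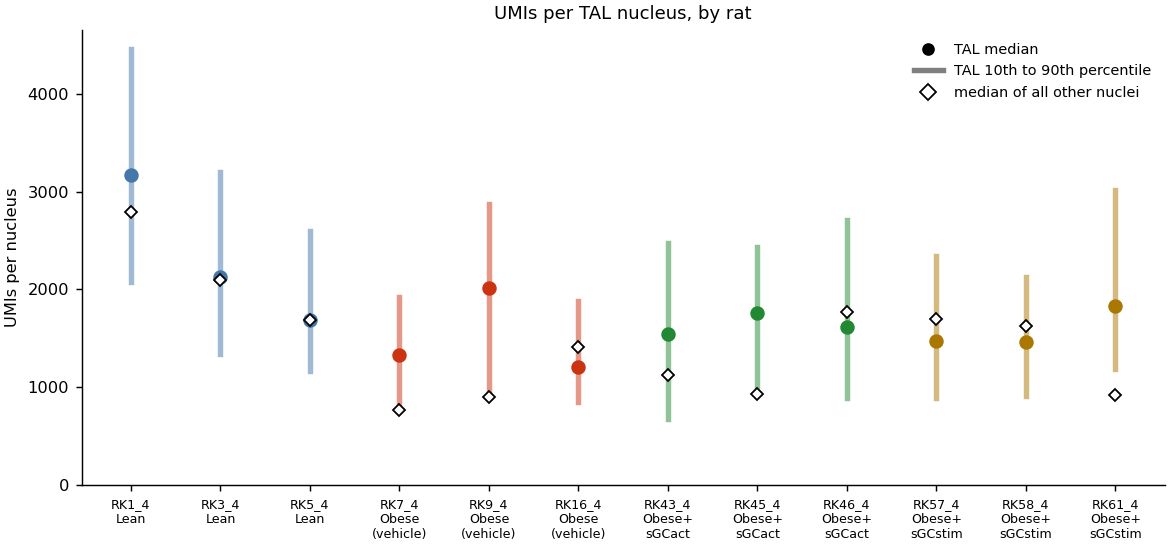
UMIs per TAL nucleus in each rat as median (filled circles) and 10th to 90th percentile (bars), beside the median of all other nuclei of the rat (open diamonds). RK1_4 has the highest TAL median at 3166, and in RK7_4, RK9_4, RK45_4 and RK61_4 the other nuclei lie far below TAL.

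The number of genes detected per TAL nucleus depends on the UMIs, so it was compared among nuclei with 1000 to 2000 UMIs. There the median was 1147, 1048 and 977 genes in lean rats and 826, 1026 and 913 in untreated obese rats, which overlapped (two-sided exact permutation test, p = 0.2). In this range the median UMIs of TAL nuclei were 1754.5, 1610 and 1521 in lean and 1394, 1645 and 1303 in untreated obese rats, so the depths were not fully matched. It was 1035, 1028 and 1017 under sGCact and 947, 956 and 1000 under sGCstim. Each sGCact-treated rat lay above each sGCstim-treated rat (1027 ± 9.07 against 968 ± 28.4 genes, SD, n = 3, two-sided exact permutation test, p = 0.1). The median UMIs in the range were 1586, 1631 and 1505 under sGCact and 1438, 1463 and 1529 under sGCstim, and their part in the difference was not tested.

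Mitochondrial transcripts in a nucleus preparation come from outside the nucleus. The TAL median was 0.0669%, 0.197% and 0% of UMIs in the lean rats, and 0.0921%, 0.175% and 1.41% in the untreated obese rats RK7_4, RK9_4 and RK16_4. RK16_4 stood above all other rats, and its other nuclei had a median of 0.424%. The difference was 1.34 on the scale of log2(percentage + 0.1) (SE 0.87, limma adjusted p = 0.705, 0.0% of 24 clusters past the threshold). Without RK16_4 it was 0.43. The median was 0.43%, 0.0879% and 0.0628% under sGCact and 0%, 0.0748% and 0.175% under sGCstim. Compared with untreated obese rats the differences were -0.76 and -1.35 (SE 0.87 each, adjusted p = 0.88 and 0.603), and between the drugs 0.59 (adjusted p = 0.73). The clusters that passed were 4.17%, 0.0% and 4.17%. Without RK16_4 the estimate for sGCact against untreated obese rats was 0.14 instead.

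The upper tail showed a clearer separation than the median. TAL nuclei with over 5% mitochondrial UMIs made up 2.05%, 3.60% and 0.0571% of TAL in the lean rats and 10.5%, 15.7% and 4.63% in the untreated obese rats RK7_4, RK9_4 and RK16_4, without overlap (two-sided exact permutation test, p = 0.1). Under sGCact the share was 7.79%, 0.252% and 0.148% and under sGCstim 0%, 0% and 1.30%. All sGCstim-treated rats lay below all untreated obese rats (two-sided exact permutation test, p = 0.1). In the other nuclei the share was 1.13% to 7.68% in lean and 4.83% to 37.3% in untreated obese rats, which overlapped (two-sided exact permutation test, p = 0.2). In all 12 rats the share was lower in TAL than in the other nuclei of the same rat. In RK61_4 it was 1.30% in TAL and 37.7% in the other nuclei, and in RK9_4 it was 15.7% and 37.3%.

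Part of this tail lay in a small group of TAL nuclei that appeared apart from the main body in the authors' UMAP embedding, a 2-dimensional map that places nuclei with like profiles near each other. The group, outlined after the map was seen, held 152 TAL nuclei, of which 83 came from RK9_4 and 42 from RK7_4 (82.2% in all). No other rat gave more than 5. It made up 14.8% of the TAL nuclei of RK9_4 and 9.59% of those of RK7_4. Its nuclei had a median of 910 UMIs and 8.72% mitochondrial UMIs, against 1867 and 0.0838% in all other TAL nuclei. Of the nearest nuclei on the map, 61.1% were TAL and 24.3% belonged to PTnov1. Without the small group, the share of TAL nuclei with over 5% mitochondrial UMIs was 1.52%, 2.10% and 4.52% in the untreated obese rats RK7_4, RK9_4 and RK16_4. It was 1.99%, 3.46% and 0.0286% in the lean rats, and the groups overlapped. The TAL share of all nuclei was then 3.77% in RK7_4 and 1.10% in RK9_4, and the log odds differed from lean by -1.92 (limma adjusted p = 0.0328).

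**Figure D4:**
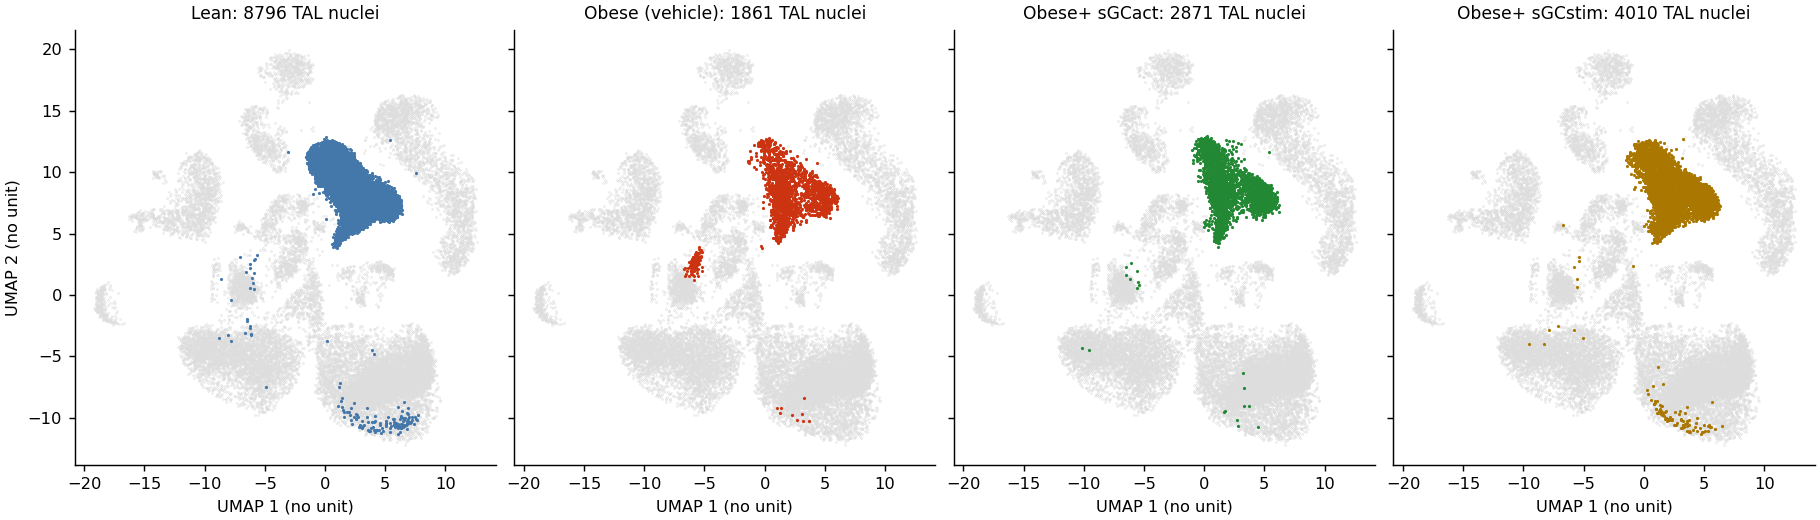
TAL nuclei of each group (colored) on the authors' UMAP map, over a subset of the other nuclei (gray). The main body is shared by the 4 groups. A small group near -6 on UMAP 1 is filled mainly by 2 untreated obese rats, RK9_4 (83 nuclei) and RK7_4 (42), with 1 nucleus from RK16_4. An arc at the lower right appears mainly in the lean and sGCstim-treated panels, and its nuclei were not counted by rat. TAL nuclei with under 50% TAL among their 30 nearest nuclei came mostly from 1 rat of each of these panels, RK5_4 (128) and RK61_4 (82).

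By a second criterion, also chosen after the data were seen, 332 TAL nuclei (1.89%) had under 50% TAL among their 30 nearest nuclei on the map, and 41 of them belonged to the small group. Of the 332, 293 (88.3%) had a proximal tubule cluster as their most frequent neighbor, in 233 cases PST, the proximal straight tubule. They came mostly from the lean rat RK5_4 (128 nuclei, 3.66% of its TAL) and the sGCstim-treated rat RK61_4 (82 nuclei, 3.80%). In these 2 rats they had medians of 2879.5 and 3166 UMIs, above the 1669 and 1796 of the other TAL nuclei. Leaving them out changed the TAL share of RK5_4 from 20.7% to 20.0% and that of RK61_4 from 9.26% to 8.91%.

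Within the main body, the part above 10 on UMAP 2 held 36.5%, 24.6% and 36.6% of the TAL nuclei in the lean rats and 19.2%, 18.7% and 15.2% in the untreated obese rats. The small group was left out of these shares. The lean rats lay above the untreated obese rats. The shares were 28.9%, 18.3% and 12.6% under sGCact and 23.3%, 14.9% and 23.96% under sGCstim. Among TAL nuclei with 1000 to 2000 UMIs the shares were 11.8%, 12.8% and 31.0% in lean and 16.6%, 16.8% and 8.67% in untreated obese rats, and the groups overlapped. The limit was read off the map, so these shares carry no test. In lean rats the nuclei of this part had more UMIs than the rest of TAL (3593 against 2924 in RK1_4). Among obese rats they had more only in RK57_4 (1514.5 against 1474) and RK61_4 (2248 against 1728.5). In every other obese rat they had fewer, most clearly in RK43_4 (716 against 1792.5).

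Cell-cycle scores, which sum up the expression of genes of the S and of the G2 and M phases relative to control genes, were given by the authors for each nucleus. The mean G2M score of TAL was -0.0174, -0.0172 and -0.0140 in the lean rats and -0.00665, -0.00727 and -0.0111 in the untreated obese rats. All means were below 0, and each untreated obese rat lay above each lean rat. The difference was 0.00789 (SE 0.00236, limma adjusted p = 0.03), and 25% of the 24 clusters passed, all of them higher in untreated obese rats. The mean score of all other nuclei differed by more, 0.0115, also without overlap (two-sided exact permutation test, p = 0.1). The call was lost with the median over nuclei (0.00476, adjusted p = 0.497), among nuclei with 1000 to 2000 UMIs (0.00516, adjusted p = 0.329), and without any 1 of RK1_4, RK3_4, RK5_4, RK7_4 or RK9_4. Without the small group of TAL nuclei it held (0.00694, adjusted p = 0.0418).

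Under sGCact the mean G2M score was -0.0161, -0.0135 and -0.0118, and under sGCstim it was -0.0110, -0.0128 and -0.0101. Each sGCact-treated rat lay below each untreated obese rat (two-sided exact permutation test, p = 0.1), whereas the limma fit gave -0.00550 (SE 0.00236, adjusted p = 0.134). The mean score of all other nuclei differed by -0.00839, also without overlap (two-sided exact permutation test, p = 0.1). Over the 24 clusters the median estimate for sGCact was -0.00540, so the shift was not particular to TAL. The other differences were -0.00298 for sGCstim against untreated obese rats (adjusted p = 0.795) and -0.00252 for sGCact against sGCstim (adjusted p = 0.595). No cluster passed in these contrasts (0.0%, with 7, 3 and 4 clusters at an unadjusted p under 0.05).

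**Figure D5:**
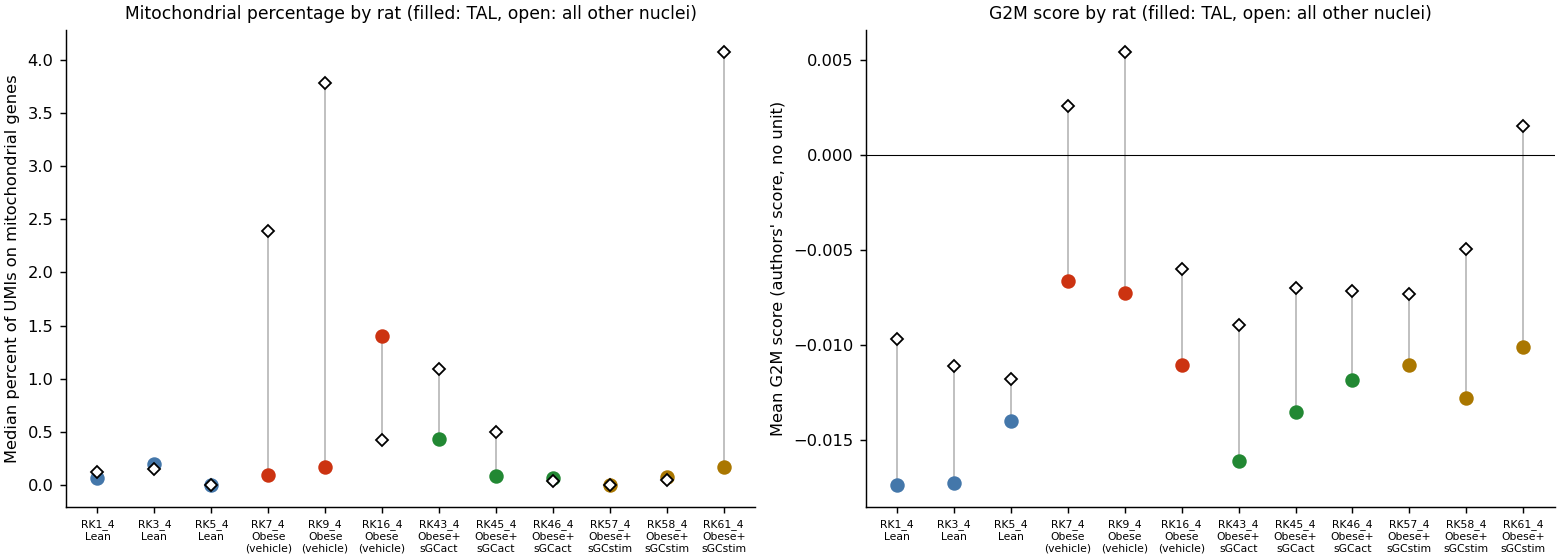
Median mitochondrial percentage (left) and mean G2M score (right) of each rat in TAL (filled circles) and in all other nuclei (open diamonds), joined by lines. The mitochondrial median of RK16_4 is the highest in TAL at 1.41%, and the G2M score is lower in TAL than in the other nuclei in 12 of 12 rats.

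The mean S score of TAL ranged from 0.00364 to 0.00427 in lean, 0.00035 to 0.00669 in untreated obese, 0.00303 to 0.00606 in sGCact-treated and 0.00386 to 0.00738 in sGCstim-treated rats. The groups overlapped, and the lowest value belonged to RK16_4. The differences were -0.000117 for untreated obese against lean, 0.000381 for sGCact and 0.00194 for sGCstim against untreated obese, and -0.00156 between the drugs (SE 0.00196 each, limma adjusted p = 0.987, 0.886, 0.5 and 0.61). No cluster passed (0.0% in each contrast, with 3, 3, 5 and 2 clusters at an unadjusted p under 0.05). The authors' phase calls placed 20.8% to 21.5% of TAL nuclei of lean rats and 24.9% to 29.3% of those of untreated obese rats in G2M. For the other nuclei these calls were 26.5% to 28.1% in lean and 30.2% to 42.6% in untreated obese rats, also without overlap, so the difference was not particular to TAL. In both TAL and the other nuclei every phase was called in every rat, and no cycling was read from the calls.

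Finally, it was asked which measures of a library moved with the TAL share among the 9 obese rats. Over 4 relations, the log odds of the TAL share had a Pearson r of 0.47 with the median UMIs of the other nuclei (Spearman rho 0.47, exact permutation p = 0.205 and 0.213). With their median mitochondrial percentage r was -0.38 (rho -0.28, exact permutation p = 0.324 and 0.463). With the number of nuclei r was -0.70 (rho -0.12, exact permutation p = 0.0647 and 0.776). With the share of proximal tubule nuclei, which is part of the same total as the TAL share and so tends to a negative relation, r was -0.63 (rho -0.40, exact permutation p = 0.0622 and 0.291). None passed after adjustment over all 9 rats (adjusted exact permutation p = 0.273, 0.324, 0.129 and 0.129 for r, and 0.582, 0.617, 0.776 and 0.582 for rho). Without the 2 rats farthest from the median of the measure, r was 0.27, -0.44, -0.24 and -0.25. The relation to the number of nuclei rested on RK9_4, without which r was 0.09. Without RK9_4 the relation to the proximal tubule share had an r of -0.24, and that to the mitochondrial percentage had an r of 0.17. Without RK61_4, in contrast, both passed for r, at -0.78 for the proximal tubule share and -0.82 for the mitochondrial percentage (adjusted exact permutation p = 0.0412 each). Neither passed for rho (-0.60 and -0.64, adjusted exact permutation p = 0.176 each). Without the 2 farthest rats as well, r was -0.53 and -0.19.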

How the data were processed

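The authors aligned reads to the rat genome rn6 with Cell Ranger (the sources used here give differing versions), introns included, corrected ambient RNA, removed doublets and low-quality nuclei, integrated the rats with Harmony in Seurat and named the clusters. UMIs per nucleus were deposited as counts without normalization, the mitochondrial share as percent, cell-cycle values as a score by the authors, and names and coordinates as other values. No column of per-sample values was unused (0). Rats carry animal identifiers, so groups came from the table.

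TAL nuclei were taken from the cluster column. Per rat, log odds of each cluster (0.5 nuclei added), log2 ratios, log2 median UMIs, log2(median mitochondrial percentage + 0.1) and mean scores were fitted with limma 3.58.1 in R 4.3.3 over 12 rats in 4 groups (at least 10 nuclei per cluster and rat for values per nucleus), with Benjamini-Hochberg adjustment over all clusters and a threshold of 0.05. Exact permutation tests of 3 against 3 rats cannot go below p = 0.1. Depth per rat was 11898496 to 49272672 UMIs. edgeR 4.0.16 on nuclei, other scales, filters, denominators and omission of each rat were alternatives. The scripts were tested on simulated data. Rats were treated as independent. Clusters named were TAL, the loop clusters, DCT, and up to 5 ratios past the threshold with the largest change in all 9 comparisons of rats. Members and rules were chosen with earlier results of these data known. Single-gene expression was not analysed here.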

Additional observations from a re-analysis of the deposited data

How the results depend on the processing

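No paired analysis was possible because the groups held different rats, and the rats carry animal identifiers and not the replicate numbers of the labels. In the paper, obese rats were assigned to treatment at random, and no pairs of rats across groups are described. Of 580 alternative values for 36 results, 513 kept direction and side of the threshold. 13 results kept both in all alternatives. A result not called in the main fit counted as kept wherever it stayed uncalled in the same direction, so these totals do not measure how stable the calls were. The called TAL share of untreated obese against lean rats kept its call in 10 of 23 alternatives. The called G2M score of the same contrast kept its call in 8 of 15. The cause of the changes below was not tested. For the TAL share, untreated obese against lean, the call was lost with the centred log-ratio (-0.94), without proximal tubule (-0.92), at 1000 or more UMIs (-1.26), in the compared groups alone (-1.83), with edgeR on the total (-1.50) or TMM (-0.97), and among omissions of 1 rat (-2.19 to -1.35). The estimate for sGCact against untreated obese reversed with the centred log-ratio (-0.028) and without proximal tubule (-0.19).

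The loop share between the drugs reversed at 1000 or more UMIs (0.35) and at most 1% mitochondrial UMIs (0.54), and for sGCact against untreated obese omissions gave -0.087 to 0.20. Ratios past the threshold numbered 4 and 5 under these filters and 3 to 10 in omissions for untreated obese against lean, 3 and 1 under the filters and 0 to 1 in omissions for sGCact against untreated obese, 0 to 1 in omissions for sGCstim, and 2 at 1000 or more UMIs between the drugs.

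Median UMIs ran in omissions from -0.83 to -0.36 for untreated obese against lean, from -0.050 to 0.32 for sGCstim against untreated obese and from -0.00483 to 0.16 between the drugs. Relative UMIs with all nuclei outside TAL as reference reversed to 0.51, -0.16 and -0.37 for untreated obese against lean, sGCact and sGCstim, and the last also to -0.00475 with at least 1 nucleus and to -0.18 to 0.14 in omissions. The mitochondrial median for sGCact ran from -1.35 to 0.14 in omissions.

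The S score of untreated obese against lean reversed at 1000 to 2000 UMIs (0.00125) and without the small group of nuclei (0.000644), as did that of sGCact without the small group (-0.000384). In omissions they ran from -0.00157 to 0.0016 and from -0.00134 to 0.00183. The G2M call of untreated obese against lean was lost with the median (0.00476), at 1000 to 2000 UMIs (0.00516) and in omissions (0.00705 to 0.00926), and the median reversed that of sGCstim (1.02e-05).

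The relations over all 12 rats add the difference of lean from obese rats. There the TAL log odds passed for r against UMIs (0.71) and the proximal tubule share (-0.71, a part of the same total). Neither passed for rho (adjusted permutation p = 0.0678 and 0.162). In omissions r ran from -0.82 to 0.17 for the mitochondrial percentage, -0.82 to 0.091 for the number of nuclei and -0.78 to -0.24 for the proximal tubule share. With 3 rats per group the intervals were wide, and a p that missed the threshold does not show that groups were alike.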
